A study of Rattus norvegicus with 6 samples.

Results

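The genes described here are the 177 rows of the gene count table, of 40995 in all, that lie on rat chromosome 3 around Lcn2 and C5 and were detected in lung. The window runs from 5 Mb before the start of Lcn2 to 5 Mb after the end of C5, from 10680688 to 23361994 in mRatBN7.2, a length of 12.7 Mb. A row was kept as a member where it held at least 10 counts in 2 or more libraries. Lcn2, C5, Lrrc8a, Col5a1, Hspa5, Fcnb and Ptges lie in the window and were left out by the rule. The window was placed around Lcn2 and C5 because both were much lower in the knockout (KO) libraries than in wild type (WT), so the members were chosen by a window that rests on the KO against WT fold changes of those 2 genes. The changes are therefore given as a description of the neighbourhood and not as evidence about it.

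The libraries come from lung RNA of 6 Sprague-Dawley-background rats, 3 WT and 3 of the crTMPRSS2 KO line, made by CRISPR/Cas9 editing aimed at Tmprss2, which encodes an airway transmembrane serine protease. No rat received a treatment, and the libraries of both groups carry the same batch label. The sources used here do not state sex, age, litter, the number of founders or any backcrossing. Each library is labelled as a biological replicate, and total gene counts ranged from 29933359 to 36895162 per library. Members held 1.41% to 1.60% of these counts. Tmprss2 itself was at 50.5, 62.0 and 65.7 counts scaled to library size (CPM) in WT and at 46.1, 56.4 and 47.0 in KO. Its log2 fold change was -0.25 (edgeR adjusted p = 0.508) with all 6 libraries and -0.36 (0.0589) without WT replicate 1, where every KO library lay below both WT libraries, and a gene total does not show whether the reading frame is intact. WT replicate 1 stood apart: its correlation with the other 5 libraries was at most 0.948 over log2 CPM, against at least 0.979 among those 5. A list of 10 skeletal and cardiac muscle markers summed to 9640 CPM there and to 28.3 to 133 CPM elsewhere, with Myh1, Myh4 and Myl1 at 0 in at least 1 library. A list of 10 squamous epithelium markers summed to 3513 CPM there and to 5.83 to 14.3 CPM elsewhere, with Krt6a, Sprr1a, Sprr3, Dsg3 and Tgm3 at 0 in at least 1 library. All 8 markers of lung epithelium and endothelium were found, at sums of 23499 to 38554 CPM. Counts of members that passed and list medians are given below with all 6 libraries and without WT replicate 1, and the value of a single member is given with the libraries it rests on. In bulk tissue, fewer cells of a type and less RNA per cell cannot be told apart.

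Lcn2 encodes lipocalin 2, a secreted protein that binds iron-carrying siderophores, and C5 encodes the complement component from which the C5a peptide is cut. Neighbouring genes can share regulatory elements or open chromatin, genes that start head to head can share a promoter region, and a stretch of DNA is inherited together with its variants. For these reasons the neighbours of a strongly changed gene are commonly examined in order of position. The window is gene-dense. It holds the endothelial receptor gene Eng, the actin-severing protein gene Gsn, kinase and GTPase regulator genes, nuclear pore and ribosomal genes, and a cluster of olfactory receptor genes.

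Promoters are shown first for 4 members that the results below turn on: Gle1 and Lamc3, higher in KO, and Phyhd1 and Hmcn2, lower. They are the members that passed the threshold in the 5-library comparison and in at least 8 of its 10 alternative settings, and for which the RefSeq promoter table (GRCr8) has an entry. Each sequence runs 5′ to 3′ from 250 bases before to 50 bases after the annotated start, on the plus strand of GRCr8. Capitals mark GC box letters, GGGCGG or its reverse complement. None of the 4 windows held the letters CCAAT on either strand. The letters of the TATA box, TATAAA, were not found in them either. The same holds for the E box letters, CACGTG.
Gle1, chr3:33606946-33607245: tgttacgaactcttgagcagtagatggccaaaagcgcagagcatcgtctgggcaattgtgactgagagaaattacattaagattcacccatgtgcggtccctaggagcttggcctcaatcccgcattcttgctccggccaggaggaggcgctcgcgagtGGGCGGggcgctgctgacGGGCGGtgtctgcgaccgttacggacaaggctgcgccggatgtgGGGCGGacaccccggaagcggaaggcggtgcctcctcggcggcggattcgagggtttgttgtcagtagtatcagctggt
Phyhd1, chr3:33937976-33938275: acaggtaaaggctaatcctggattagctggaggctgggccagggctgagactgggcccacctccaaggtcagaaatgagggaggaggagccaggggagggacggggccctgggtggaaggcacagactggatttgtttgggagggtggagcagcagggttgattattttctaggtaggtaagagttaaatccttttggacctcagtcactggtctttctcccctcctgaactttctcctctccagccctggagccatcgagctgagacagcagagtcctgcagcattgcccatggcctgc
Hmcn2, chr3:34985996-34986295: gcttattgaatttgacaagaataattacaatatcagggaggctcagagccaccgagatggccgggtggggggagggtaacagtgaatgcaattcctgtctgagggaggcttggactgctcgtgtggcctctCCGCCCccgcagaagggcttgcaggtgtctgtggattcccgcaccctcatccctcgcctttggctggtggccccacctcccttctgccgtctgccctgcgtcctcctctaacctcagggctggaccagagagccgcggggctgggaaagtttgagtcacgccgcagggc
Lamc3, chr3:35562739-35563038: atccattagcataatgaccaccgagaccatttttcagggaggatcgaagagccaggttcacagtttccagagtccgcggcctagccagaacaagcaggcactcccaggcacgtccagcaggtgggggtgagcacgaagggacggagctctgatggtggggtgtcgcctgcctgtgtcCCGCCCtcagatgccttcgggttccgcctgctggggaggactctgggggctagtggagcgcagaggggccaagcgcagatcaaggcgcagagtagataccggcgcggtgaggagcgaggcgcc

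The Gle1 promoter held 3 GC boxes and 26 CpG dinucleotides. Hmcn2 and Lamc3 each held 1 GC box, with 13 and 19 CpG dinucleotides. Phyhd1 held no GC box and 2 CpG dinucleotides. Of the 177 members, 141 matched a promoter by gene identifier. GGGCGG was found in 86 of these 141, or 61.0%, against 34.9% of all 27457 promoters in the table. CCAAT was found in 36.2% of members and 37.7% of all promoters. TATAAA was found in 4.26% of members and 14.3% of all, and CACGTG in 3.55% and 6.65%. The median number of CpG dinucleotides was 19 in members and 7 in all promoters. Members had to be detected in lung and the full table did not, so these shares describe different kinds of genes. No motif overlapped another in the 4 printed windows, and a match is a stretch of letters, not a bound site.

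With all 6 libraries, 0 of 171 tested members passed edgeR's quasi-likelihood test at an adjusted p of 0.05, and 0.0542% of all 18464 tested genes did (0.0162% higher and 0.0379% lower in KO). At an unadjusted p under 0.05, 20 members passed, and 11.3% of all genes did. DESeq2 passed 10 members, 3 higher and 7 lower, and 2.71% of all genes (1.05% higher and 1.66% lower). Limma-voom with sample quality weights passed 18 members, 7 higher and 11 lower, and 9.08% of all genes (4.21% higher and 4.86% lower). The median log2 fold change, KO against WT, was -0.06 over members, -0.003 over all tested genes and -0.01 over chromosome 3 outside the window. Of the 171 members, 146 lay within 1.5-fold of no change, where 84.1% of all genes lay, so the members were near the background on this measure. The 3 KO libraries all lay above the 3 WT libraries in 16 of the 171 members and below them in 33, shares of all genes being 11.4% and 11.4%. Log2 fold changes were negative in 104 members and positive in 67, beside 9286 and 9178 of all tested genes. Without WT replicate 1, 88 members were negative and 87 positive. The lean toward lower values with all 6 libraries was not tested. The 95% interval of the fold change stayed inside 2-fold in both directions for 127 of the 171 members (65.9% of all genes) and inside 1.5-fold for 80 (39.2% of all genes).

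Without WT replicate 1, 11 of 175 tested members passed, 5 higher and 6 lower in KO, where 3.99% of all 18994 tested genes passed (1.65% higher and 2.34% lower). Gle1, Lamc3, Ak1 and Pbx3 were among those higher. Those lower were Olfm1, Phyhd1, Ier5l, Hmcn2, Sh2d3c and LOC120101946. Both comparisons share 5 libraries, so likeness between them is largely built in. The 11 were picked by a difference between KO and WT replicates 2 and 3, so separation among those libraries was built in. With WT replicate 1 added, its value lay within the KO range or beyond it for Ak1 alone of the 11. Over all tested genes, the groups did not overlap in 22.8% with all 6 libraries and in 34.6% without WT replicate 1. The median log2 fold change of members was -0.002, against 0.004 over all tested genes. Of the 175, 152 lay within 1.5-fold, where 87.1% of all genes lay. The interval stayed inside 2-fold for 141 members (73.2% of all genes) and inside 1.5-fold for 118 (58.1% of all genes). The median standard error of a member was 0.10 on the log2 scale, against 0.17 with all 6 libraries. These calls rest on 2 WT libraries. Markers of several cell types differed between the same 5 libraries. NK and T cell markers summed to 235 to 250 CPM in KO and 132 to 136 CPM in WT replicates 2 and 3, with 10 of 10 higher in every KO library. B and plasma cell markers summed to 181 to 194 CPM in KO and 87.1 to 113 CPM in WT, with 6 of 6 higher. Lung epithelium and endothelium markers summed to 23499 to 25761 CPM in KO and 26060 to 27108 CPM in WT, with 7 of 8 lower. None of the markers in these lists was at 0 in any library. Neutrophil and macrophage markers summed to 413 to 465 CPM in KO and 474 to 515 CPM in WT. Of those 8 markers, 3 were lower and 1 was higher in every KO library, and Marco was at 0 in at least 1 library. Over all tested genes, every KO library was higher than both WT libraries in 17.1% and lower in 17.5%. The part of these cell types in the members' changes was not tested.

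**Figure D1:**
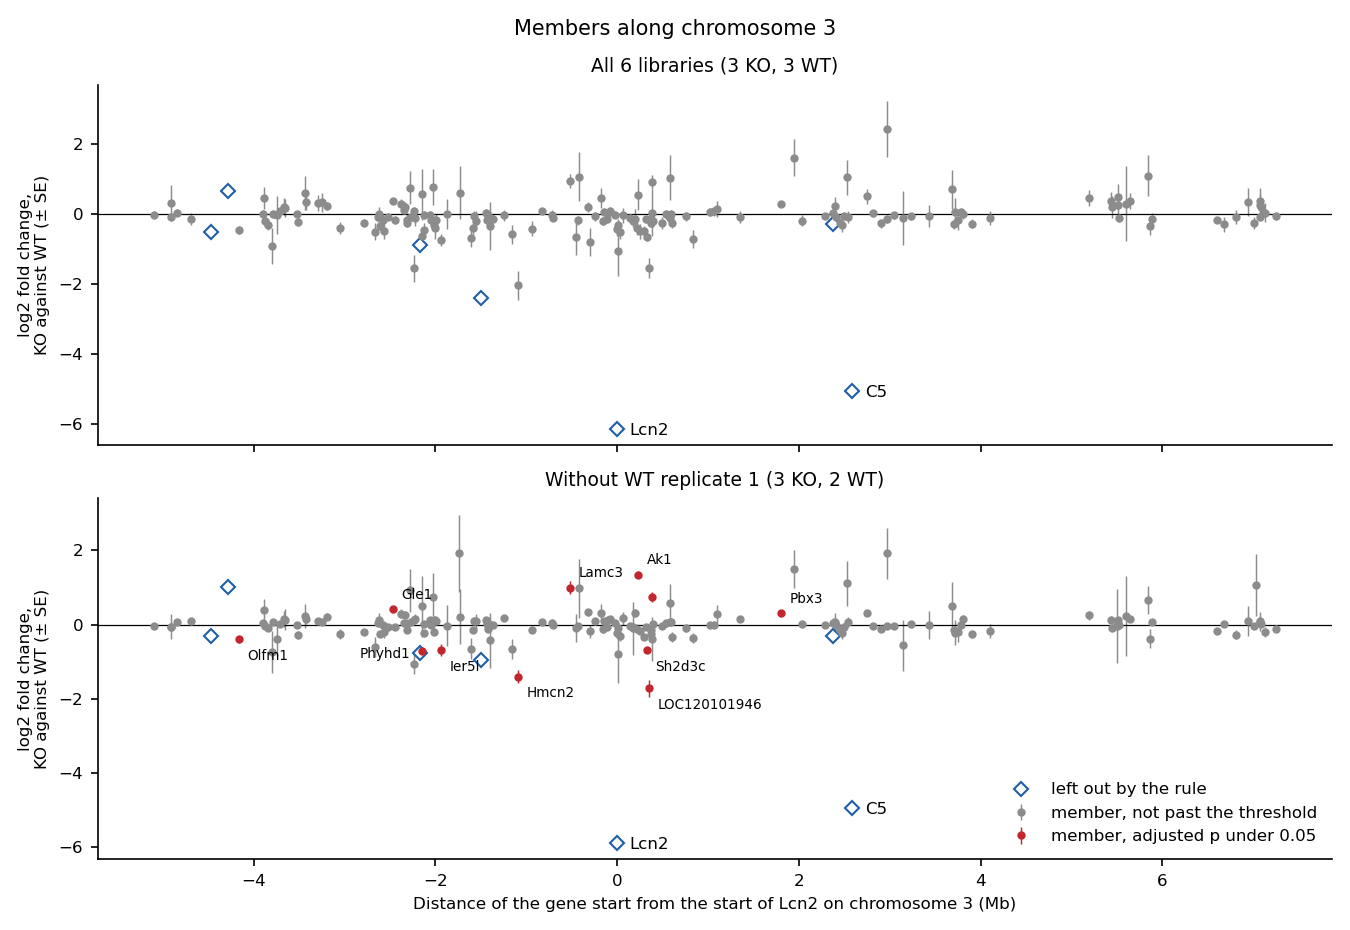
Log2 fold change of each tested member, KO against WT, with its standard error, by distance of its start from the start of Lcn2 in Mb, with all 6 libraries (top) and without WT replicate 1 (bottom). Red points passed an adjusted p of 0.05 and open diamonds are the genes the rule left out. Grey points crowd around 0 on both sides of Lcn2 and C5, and the 11 red points all lie before C5, on both sides of 0.

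Along position, the members that passed were not in 1 block and did not share a direction. All 11 started between 11520522 and 17488691, and 118 tested members started in that stretch. In successive 1 Mb steps from the lower end of the window, 1, 0, 2, 2, 1, 4 and 1 members passed, and then 0 in each of the 6 remaining steps. Of 90 members before Lcn2, 6 passed; of 44 between Lcn2 and C5, 5 passed; of 41 tested after C5, 0 passed. The share over all tested genes was 3.99%, and on chromosome 3 outside the window 36 of 1169 passed, or 3.08%. Genes left out by the rule are in the share over all tested genes but not in the counts of the window. Among them, Lcn2 and C5 passed, and so did Lrrc8a, Col5a1 and Fcnb, which lie before Lcn2 (edgeR adjusted p of 0.000592, 0.0150 and 0.0208). Hspa5 and Ptges did not pass. Within 1 Mb of the start of Lcn2, 5 of 47 tested members passed, and within 1 Mb of the start of C5, 1 of 21. Step medians of the log2 fold change ran from -0.18 to 0.21 without WT replicate 1 and from -0.20 to 0.31 with all 6. Whether these shares differ along the window was not tested. Narrowing the margins from 5 to 2.5 Mb gave 10 of 120 members, and widening them to 10 Mb gave 14 of 285, the 110 genes of the added flanks holding 3: Nrarp, Adamtsl2 and Dpp7.

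Members immediately beside Lcn2 differed between genotypes far less than Lcn2 itself. The window was placed on Lcn2 for its large change, so this contrast was largely fixed by the choice. Lcn2 was at 270, 229 and 116 CPM in WT and at 3.01, 2.65 and 3.06 CPM in KO. The nearest 4 members before it are Golga2, which encodes a Golgi matrix protein, Dnm1, which encodes the membrane-fission GTPase dynamin 1, Ciz1, which encodes a zinc finger protein of DNA replication, and RGD1561113. The nearest 4 after it are Ptges2, which encodes a prostaglandin E synthase, LOC120101523, Slc25a25, which encodes a mitochondrial carrier, and Naif1, which encodes an apoptosis-inducing factor. Golga2 was at 152, 132 and 130 CPM in WT and 142, 145 and 138 CPM in KO, so the groups overlapped. Ciz1 was at 51.7, 46.4 and 49.6 CPM in WT and 50.8, 48.4 and 47.5 CPM in KO, again overlapping. Ptges2 was at 27.6, 18.3 and 18.8 CPM in WT and 16.7, 17.5 and 18.2 CPM in KO. For Ptges2 all KO libraries lay below all WT libraries, and WT replicate 1 was the highest. Slc25a25 was at 35.4, 27.2 and 21.9 CPM in WT and 17.1, 20.6 and 21.5 CPM in KO, with the nearest values of the groups almost touching. Without WT replicate 1, the log2 fold changes of these 8 members ran from -0.79, for the barely detected LOC120101523, to 0.16, and their 95% intervals reached from -2.54 to 0.96. The log2 fold change of Lcn2 was -5.89. None of the 8 passed with edgeR in either comparison, and the smallest adjusted p was 0.242 (edgeR). Slc25a25 passed with limma-voom and sample quality weights on all 6 libraries, where 9.08% of all genes passed.

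Members beside C5 also differed far less than C5, a contrast that the choice of C5 largely fixed as well. C5 was at 79.1, 72.4 and 57.9 CPM in WT and at 2.17, 2.11 and 2.07 CPM in KO. The nearest 4 members before it are RGD1564854, Phf19, which encodes a Polycomb-associated reader protein, LOC102550940, and Traf1, which encodes an adaptor of TNF receptors. The nearest 4 after it are Cntrl, which encodes the centrosomal protein centriolin, Rab14, which encodes a small GTPase of endosome traffic, Gsn, which encodes gelsolin, and Stom, which encodes the membrane protein stomatin. Phf19 was at 22.8, 22.6 and 23.8 CPM in WT and 22.3, 21.6 and 22.8 CPM in KO, with overlapping groups. Rab14 was at 163, 198 and 193 CPM in WT and 188, 190 and 187 CPM in KO. WT replicate 1 was the lowest library for Rab14, and the KO libraries lay between it and the other WT libraries. Gsn, the member with the highest level at a mean of 1879 FPKM (counts scaled to gene length and library size), was at 6967, 5413 and 5272 CPM in WT and 5110, 4720 and 4924 CPM in KO. All 3 KO values for Gsn lay below the WT values, by a log2 fold change of -0.12 ± 0.05 (SE) without WT replicate 1 (edgeR adjusted p = 0.244) and -0.26 ± 0.13 with all 6 (0.490). Cntrl was at 25.8, 45.8 and 43.0 CPM in WT and 50.5, 56.3 and 57.0 CPM in KO. Cntrl came closest of the 8 to the threshold, with a log2 fold change of 0.30 ± 0.08 and an edgeR adjusted p of 0.0623 without WT replicate 1, and 0.51 ± 0.21 (0.425) with all 6. Over the 8 members, the log2 fold changes without WT replicate 1 ran from -0.22 to 1.12 and their 95% intervals from -0.62 to 2.47, the highest belonging to LOC102550940, while C5 had a log2 fold change of -4.94. None of the 8 passed with edgeR in either comparison. Cntrl passed with DESeq2 without WT replicate 1, where 6.23% of all genes passed.

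**Figure D2:**
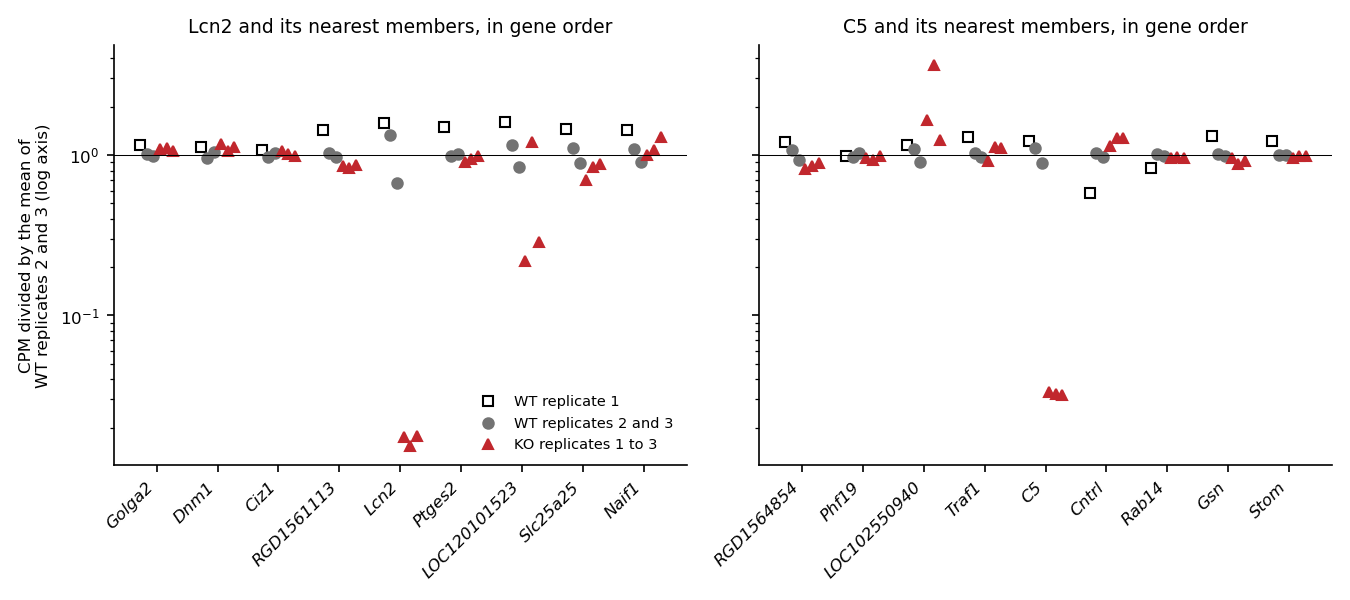
CPM in each library divided by the mean of WT replicates 2 and 3, on a log axis, for Lcn2 and C5 and the 4 nearest members on each side, in gene order. The KO libraries of Lcn2 and C5 lie far below 1, while most of their neighbours lie close to 1; the scattered KO points of LOC120101523 and LOC102550940 come from genes at under 2 CPM.

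Among genes for surface receptors, ligands and secreted or matrix proteins, 10 members were tested and 3 passed without WT replicate 1. For this and each later list, the share of all tested genes that passed was 3.99% without WT replicate 1, and with all 6 libraries 0 members of any list passed. The median of this list was -0.28 without WT replicate 1 and -0.47 with all 6 libraries, beside medians of 0.004 and -0.003 over all tested genes. Hmcn2 encodes hemicentin 2, a large extracellular matrix protein, and spans 14588353 to 14738320. Its CPM was 71.1, 28.6 and 25.6 in WT and 7.35, 11.6 and 11.7 in KO. Every KO library was lower than every WT library, and WT replicate 1 was far above the other WT libraries. Hmcn2 fell by 1.41 ± 0.18 on the log2 scale, or 2.65-fold (edgeR adjusted p = 0.0026, 5 libraries). With all 6 libraries the value was -2.03 ± 0.42, with an edgeR adjusted p of 0.204. Lamc3 encodes a laminin gamma chain of basement membranes. It was at 15.3, 16.2 and 12.6 CPM in WT and 22.9, 35.7 and 27.0 CPM in KO. The groups did not overlap with or without WT replicate 1. Lamc3 rose by 0.99 ± 0.18 on the log2 scale, or 1.99-fold (edgeR adjusted p = 0.0159, 5 libraries). The edgeR adjusted p of Lamc3 was 0.0519 without KO replicate 2 as well and 0.1002 without WT replicate 3, at log2 fold changes of 0.80 and 0.81. The value of Lamc3 with all 6 libraries was 0.96 ± 0.19 (edgeR adjusted p = 0.197). Olfm1, which encodes a secreted olfactomedin of neurons, was at 36.8, 35.4 and 29.6 CPM in WT and 24.0, 25.3 and 24.7 CPM in KO. It fell by 0.40 ± 0.10 on the log2 scale and passed barely, at an edgeR adjusted p of 0.0497. Olfm1 missed the threshold when KO replicate 1, 2 or 3 or WT replicate 2 was also left out, at edgeR adjusted p-values of 0.137, 0.133, 0.110 and 0.291, and without WT replicate 2 its log2 fold change was -0.26. The value of Olfm1 with all 6 libraries was -0.46 ± 0.12 (edgeR adjusted p = 0.259).

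Eng and Olfml2a, abundant members of this list, had values that moved with WT replicate 1. Eng, which encodes endoglin, a TGF-beta co-receptor of endothelium, averaged 350 FPKM and was at 1639, 1022 and 897 CPM in WT and 870, 825 and 837 CPM in KO. All KO libraries were below all WT libraries, but the log2 fold change without WT replicate 1 was -0.18 ± 0.06 (edgeR adjusted p = 0.155), against -0.49 ± 0.22 with all 6 (0.447). Olfml2a, another olfactomedin gene, was at 497, 335 and 338 CPM in WT and 330, 326 and 326 CPM in KO, which is a log2 fold change of -0.04 without WT replicate 1 and -0.25 ± 0.17 with all 6. A list of 8 mesothelium and fibroblast markers summed to 3262 to 3458 CPM in KO and 4261 to 4804 CPM in WT replicates 2 and 3, with 6 of 8 lower in every KO library and none at 0. WT replicate 1 was at 7062 CPM for that list. The part of this marker difference in the matrix genes was not tested.

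Among signalling adaptors, kinases and GTPase regulators, 28 members were tested and 2 passed, both lower. The median of the list was -0.02 without WT replicate 1 and -0.12 with all 6. Sh2d3c, from 16010622 to 16046491, encodes an SH2-domain adaptor that links receptors to integrin and migration signalling. Its CPM was 260, 291 and 259 in WT and 177, 165 and 171 in KO. The WT libraries, replicate 1 among them, kept within a narrow range, and all KO libraries lay clear below it. Sh2d3c fell by 0.69 ± 0.07 on the log2 scale, or 1.61-fold (edgeR adjusted p = 0.000592, 5 libraries). With all 6 libraries the value was -0.66 ± 0.10, and the edgeR adjusted p was 0.103. LOC120101946, annotated as a small nuclear RNA gene, lies inside Sh2d3c on the same strand, from 16029879 to 16029985. It was at 2.98, 5.25 and 4.56 CPM in WT and 1.36, 1.61 and 1.47 CPM in KO, with no overlap. It fell by 1.73 ± 0.24 on the log2 scale (edgeR adjusted p = 0.00405, 5 libraries). Reads of Sh2d3c transcripts that cross this short gene cannot be told apart from its own, and the library kit selected polyadenylated RNA. The decreases of both therefore do not count as separate results. Ier5l, named for its likeness to an immediate early response gene, was at 22.7, 22.9 and 18.1 CPM in WT and 12.2, 11.1 and 14.8 CPM in KO. It fell by 0.69 ± 0.15 on the log2 scale (edgeR adjusted p = 0.0337, 5 libraries). Ier5l missed the threshold without KO replicate 1, KO replicate 2 or WT replicate 2, at edgeR adjusted p-values of 0.0994, 0.128 and 0.229. The value of Ier5l with all 6 libraries was -0.74 ± 0.17 (edgeR adjusted p = 0.234), and that of LOC120101946 was -1.53 ± 0.28 (0.167). Niban2, the member of the list with the highest FPKM, was at 463, 313 and 324 CPM in WT and 299, 316 and 308 CPM in KO, with overlapping groups.

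Of 25 tested transcription and chromatin factors, 1 passed, and the list's median was -0.01 without WT replicate 1 and 0.01 with all 6. Pbx3 encodes a homeodomain partner of HOX proteins. It was at 44.0, 45.3 and 42.1 CPM in WT and 54.3, 53.8 and 54.3 CPM in KO, with little spread within either group. Pbx3 rose by 0.31 ± 0.07 on the log2 scale, or 1.24-fold (edgeR adjusted p = 0.0335, 5 libraries). Pbx3 missed the threshold whichever further library was left out, KO replicates 1 to 3 or WT replicates 2 and 3, with edgeR adjusted p-values from 0.0649 to 0.155 and log2 fold changes from 0.25 to 0.37. The value of Pbx3 with all 6 libraries was 0.31 ± 0.09 (edgeR adjusted p = 0.291). LOC103691768, a long noncoding RNA gene within Pbx3 on the same strand, was at 1.05, 1.30 and 1.55 CPM in WT and 4.21, 1.419 and 6.44 CPM in KO. KO replicate 2 lay among the WT libraries, and the gene did not pass with edgeR (log2 fold change 1.49 ± 0.51, edgeR adjusted p = 0.157). With DESeq2 without WT replicate 1, LOC103691768 passed. Rxra, which encodes the retinoid X receptor shared by many nuclear receptors, was at 248, 165 and 169 CPM in WT and 169, 186 and 176 CPM in KO. WT replicate 1 was the highest library for Rxra, and the other WT libraries lay just below the KO libraries.

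Among genes of protein synthesis, protein degradation and RNA transport, 1 of 10 tested members passed, and the list's median was 0.04 without WT replicate 1 and -0.05 with all 6. Gle1 encodes a factor of messenger RNA export at the nuclear pore. It was at 39.2, 39.0 and 36.9 CPM in WT and 50.3, 52.2 and 48.3 CPM in KO. All 3 WT libraries were close together and below every KO library. Gle1 rose by 0.41 ± 0.07 on the log2 scale, or 1.33-fold (edgeR adjusted p = 0.0126, 5 libraries). Its edgeR adjusted p was 0.0666 without KO replicate 2 as well and 0.0701 without WT replicate 3, at log2 fold changes of 0.38 and 0.36. The value of Gle1 with all 6 libraries was 0.39 ± 0.09 (edgeR adjusted p = 0.246). Its neighbours on either side, Odf2 at 2.09 kb and Sptan1 at 4.15 kb, had log2 fold changes of -0.06 and -0.07. The ribosomal protein genes Rpl12 and Rpl35, at means of 297 and 318 FPKM, had log2 fold changes of 0.08 ± 0.06 and 0.03 ± 0.06 without WT replicate 1 and of -0.11 ± 0.15 and -0.08 ± 0.11 with all 6. Psmb7, which encodes a catalytic proteasome subunit, was at 127, 81.3 and 69.0 CPM in WT and 80.6, 70.9 and 76.0 CPM in KO.

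Of 10 tested genes for mitochondrial proteins or listed with them, 2 passed, both higher. The median of the list was 0.05 without WT replicate 1 and -0.17 with all 6. Ak1 encodes adenylate kinase 1, which interconverts adenine nucleotides and is abundant in muscle. It was at 39.3, 13.1 and 11.6 CPM in WT and 33.0, 29.4 and 31.9 CPM in KO. WT replicate 1, the library with muscle marker RNA, was above all KO libraries, while the other WT libraries were far below them. Ak1 rose by 1.35 ± 0.10 on the log2 scale, or 2.54-fold, without WT replicate 1 (edgeR adjusted p = 0.000186). With all 6 libraries the value was 0.56 ± 0.44, with an edgeR adjusted p of 0.615. Muscle markers summed to 28.3, 40.2 and 133 CPM in KO and to 35.5 and 48.3 CPM in WT replicates 2 and 3, with 0 of 10 higher in every KO library. The part of muscle RNA in the values of Ak1 was not tested. Endog, which encodes the mitochondrial nuclease endonuclease G, was at 8.46, 3.29 and 4.50 CPM in WT and 1.91, 2.18 and 1.499 CPM in KO. The groups did not overlap, but the log2 fold change without WT replicate 1, -1.06 ± 0.27, missed the threshold at an edgeR adjusted p of 0.0587. The value of Endog with all 6 libraries was -1.54 ± 0.39 (edgeR adjusted p = 0.259). With DESeq2, Endog passed in both comparisons.

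Among 14 tested enzymes of nucleotide, amino acid, lipid and sugar metabolism, 1 passed, and the list's median was -0.12 without WT replicate 1 and -0.23 with all 6. Phyhd1 encodes a dioxygenase related to phytanoyl-CoA hydroxylase. It was at 33.5, 39.1 and 43.4 CPM in WT and 25.4, 24.9 and 24.4 CPM in KO. The KO libraries were nearly equal and all lower than the lowest WT library. Phyhd1 fell by 0.73 ± 0.08 on the log2 scale, or 1.65-fold (edgeR adjusted p = 0.00134, 5 libraries). The value of Phyhd1 with all 6 libraries was -0.63 ± 0.12 (edgeR adjusted p = 0.180). The span of Phyhd1, 13535670 to 13553797, overlaps the end of Lrrc8a on the same strand. Lrrc8a, left out by the rule, was at 101, 85.4 and 78.9 CPM in WT and 51.3, 46.8 and 46.6 CPM in KO, and the sources used here do not state how reads in the shared stretch were assigned. Ptgs1, which encodes cyclooxygenase 1, was at 52.4, 52.8 and 51.7 CPM in WT and 46.5, 47.2 and 36.9 CPM in KO. All KO values of Ptgs1 were lower, and the log2 fold change was -0.26 ± 0.10 (edgeR adjusted p = 0.203, 5 libraries). Ass1, which encodes argininosuccinate synthase, was at 54.2, 37.0 and 30.3 CPM in WT and 31.8, 30.6 and 29.1 CPM in KO, with overlapping groups.

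None of 21 tested genes of the cytoskeleton, membrane traffic and torsins, or listed with them as Ciz1 and Wdr5 were, passed. At the list's median the log2 fold change was 0.02 without WT replicate 1 and 0.04 with all 6. Sptan1, which encodes the non-erythroid alpha spectrin and averaged 97.9 FPKM, was at 937, 750 and 810 CPM in WT and 767, 716 and 746 CPM in KO. The remaining 59 members were in no role list, 57 of them were tested, and LOC120101946 alone of these passed.

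**Figure D3:**
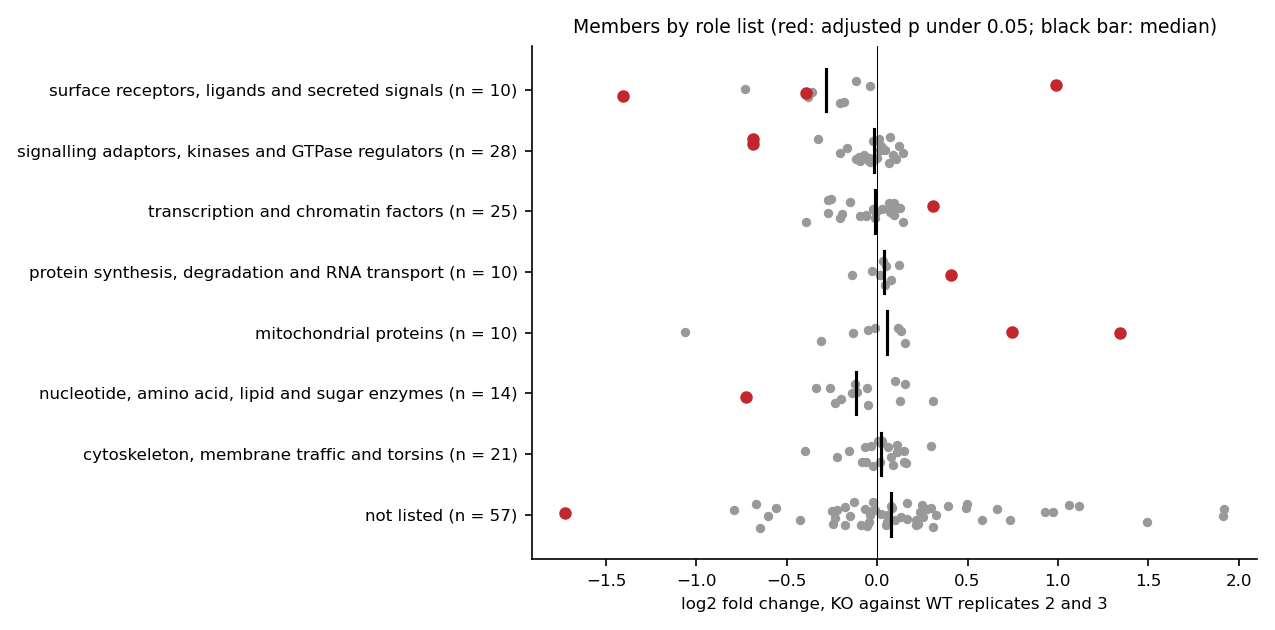
Log2 fold change of each tested member without WT replicate 1, by role list, with the number tested; red points passed an adjusted p of 0.05 and black bars are list medians. Most points of every list lie within 1 log2 unit of 0, and the red points lie on both sides of it.

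**Figure D4:**
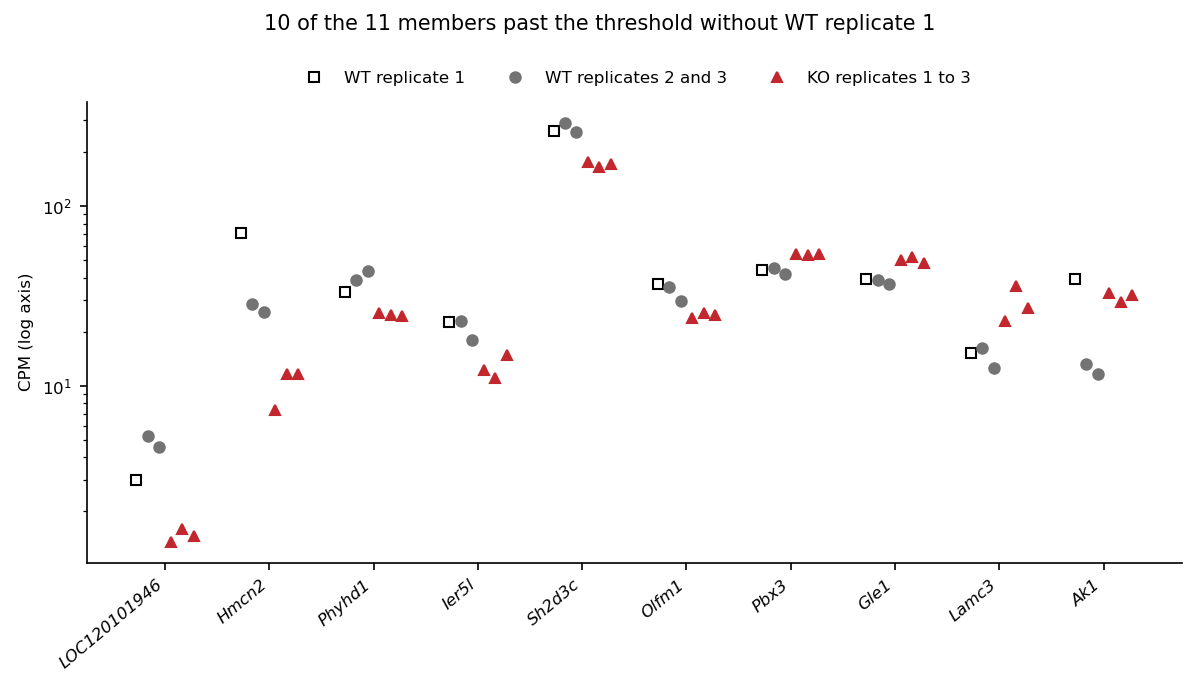
CPM on a log axis in each of the 6 libraries for 10 of the 11 members that passed without WT replicate 1, ordered by log2 fold change. KO triangles lie apart from all WT points in 9 of the 10 plotted, where the groups did not overlap in 22.8% of all tested genes. The plotted members were picked by a difference among the other 5 libraries. For Ak1 the square of WT replicate 1 lies above the KO triangles.

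Members next to those that passed mostly did not pass themselves. Each of the 11 has a nearest tested member on each side. Other than Sh2d3c and LOC120101946, which overlap, none of these neighbours passed in the 5-library edgeR comparison. Under alternatives, LOC103691768 beside Pbx3 passed with DESeq2 without WT replicate 1. Eng beside Ak1 passed with limma-voom and sample quality weights on all 6 libraries. Genes left out by the rule were not counted as neighbours here. Lrrc8a, which overlaps Phyhd1, passed in the same direction (log2 fold change -0.77, edgeR adjusted p = 0.000592, 5 libraries). Fcnb, before Olfm1, passed in the other direction (1.00, edgeR adjusted p = 0.0208, 5 libraries). Eng follows Ak1 by 11.5 kb and had a log2 fold change of -0.18 beside 1.35 for Ak1. Aif1l follows Lamc3 by 2.78 kb and had a value of -0.08 beside 0.99. Ass1 follows Hmcn2 by 9.04 kb and had a value of -0.14 beside -1.41. On the other side of Hmcn2, Ncs1 at 19.5 kb had a value of -0.67 ± 0.27, in the direction of Hmcn2 (edgeR adjusted p = 0.231, 5 libraries). LOC103691768, within Pbx3, also had the sign of its neighbour. In 19 pairs, members start head to head within 1000 bases.

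The members comprised 154 protein-coding genes, 18 long noncoding RNA genes, 3 pseudogenes and 2 small RNA genes, and 95 of them lie on the plus strand. The long noncoding members had a median log2 fold change of 0.40 without WT replicate 1, over 16 tested, beside 0.16 over the 2196 tested long noncoding genes of the whole table. Protein-coding members had a median of -0.01, and so did all protein-coding genes. None of the 16 passed, and their mean levels ran from 0.07 to 1.27 FPKM, so their counts were low. Another 134 rows of the window were under the count minimum, 76 of them at 0 in every library. These include all 35 olfactory receptor rows of the window, 33 of which lie in the 1.08 Mb between Klf5-ps1 and LOC690155, where no member lies. At the lower end, Vav2 and LOC100911432 were the first members, with log2 fold changes of -0.04 and -0.06 without WT replicate 1, and Sardh and Dbh just outside had -0.21 and -0.05. At the upper end, Scai and Ppp6c were the last members, at -0.19 and -0.12, and LOC100362366 and Kynu just outside had 0.18 and 0.18. LOC108350345 and LOC686066 missed the count minimum, with 9 counts in their second-highest library, and LOC120101529 and LOC108350365 just met it with 10.

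WT replicate 1 lay outside the other libraries for many members, as for many genes of the whole table. It was above all other libraries in 81 of the 177 members and below all in 42, shares of 36.4% and 37.3% being found over all tested genes. In 60 members it differed by more than 1.5-fold from the median of the other 5, as it did in 7772 of all 19375 rows past the count minimum. Crat, which encodes carnitine acetyltransferase, is an example, at 99.0 CPM in WT replicate 1, 48.2 and 39.0 CPM in the other WT libraries and 45.8 to 51.0 CPM in KO. The authors' deposited table of genes that differ between KO and WT lists 192 genes, or 0.468% of the rows. Of the members, 3 are in the authors' deposited table: Hmcn2 at a log2 fold change of -2.04 (adjusted p = 1.13e-05), LOC120101946 at -1.54 (0.000937) and Endog at -1.55 (0.0112). The DESeq2 fit made here on all 6 libraries passed 10 members and 501 of all genes. A member absent from the authors' table, such as Sh2d3c, can therefore still have passed with DESeq2 here.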

How the data were processed

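Poly(A)-selected RNA from lung of 6 rats was sequenced as read pairs of 150 bases, per the labels' protocols. CASAVA, HISAT2 2.2.1, StringTie 2.2.3, featureCounts 2.0.6, DESeq2 1.42.0 and the build mRatBN7.2 are named in the submitters' processing notes. The authors deposited a count per gene and library and an FPKM table. In each library FPKM equalled count over gene length times 1 constant. Most low counts were even numbers (3171 even and 1641 odd in WT replicate 1), so both mates of a pair appear to have been counted. The strand setting is not given in the sources used here, so antisense overlaps cannot be separated; 81 members overlap another row. The log2 fold changes, p-values and adjusted p-values of the authors' deposited table come from their own comparison.

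Counts of all genes were fitted with edgeR 4.0.16 (TMM scaling, filterByExpr, quasi-likelihood test, Benjamini-Hochberg adjustment over all tested genes) in R 4.3.3, for 3 KO against 3 WT and again without WT replicate 1. Passing means an adjusted p under 0.05, in edgeR unless another test is named. Rose and fell are used of members that passed. CPM values in the text are TMM-scaled. Log2 fold changes carry standard errors and 95% intervals from the fit. DESeq2 and limma 3.58.1 served as alternatives, as did a filter of 10 counts in 2 libraries, other scaling, a log2(FPKM + pseudocount) fit and each library left out. The pipeline was tested on simulated counts in which the libraries of a group shared the same mean for each gene. That test does not cover a library that stands apart as WT replicate 1 does. Libraries held 29933359 to 36895162 counts, and no count interval was used because reads carry no molecular identifiers. The members and the gene lists were chosen with earlier results of these data known. Named genes were the members past the threshold, the 6 largest changes in each direction in each comparison at a mean of 1 CPM or more in the higher group, the 4 nearest on each side of Lcn2 and C5, those at the window's ends, and the 6 highest in FPKM overall and 3 in each role list; Aif1l, Ncs1, Odf2, Nrarp, Adamtsl2 and Dpp7 were named for their position or call. P-values weigh the difference between the groups against the spread between the libraries of these rats. With all 6 libraries, that spread includes WT replicate 1. The values of 1 member that passed are not reported here.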

Additional observations from a re-analysis of the deposited data

How the results depend on the processing

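With all 6 libraries, the count of members past the threshold was 0 and moved to 10 with DESeq2, to 18 with limma-voom and sample quality weights, and to 11 without WT replicate 1; leaving out single libraries gave 0 to 11, and the median log2 fold change ran from -0.095 to -0.00192, the latter without WT replicate 1. Without WT replicate 1, the count of 11 ran from 6 (without KO replicate 2) to 9 when a KO library was also left out. DESeq2 gave 15 members there, 7 higher and 8 lower, where it passed 6.23% of all genes. It added Endog, Fpgs, LOC103691768 and Cntrl. The median of -0.002 ran from -0.015 to 0.013 when any further library was left out. That median was 0.00907 with limma-voom, -0.011 with margins of 2.5 Mb and 0.013 with margins of 10 Mb. Phyhd1, Hmcn2, Ak1, Sh2d3c and LOC120101946 passed in all 10 alternative settings of the 5-library comparison; Gle1 and Lamc3 passed in 8, Ier5l in 6, Pbx3 in 4 and Olfm1 in 3. No named gene that passed changed sign under any alternative. Of 1453 alternative values for single named genes, 59 had another sign than the main value, all for genes that did not pass. Between all 6 libraries and the 5, 14 of 54 named members changed sign, such as Crat from -0.38 to 0.13 and Rxra from -0.13 to 0.09. WT and KO share replicate numbers, and the deviations of same-numbered libraries correlated at r of -0.08, 0.03 and -0.08. Differently numbered libraries gave r from -0.11 to 0.12. With 3 libraries per group, these values cannot show whether the numbers pair the rats. With the replicate block, 0 members passed with all 6 libraries, and without WT replicate 1 the count was 9 and the median -0.00795. The cause of these shifts was not tested. Of the 177 members, 2 had too few counts for either test, and long noncoding members were too low for small changes to be detectable at this depth.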
